A study of Mus musculus with 9 samples.

Results

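Mitochondrial ribosomal protein genes were taken from the deposited gene annotation as those whose symbol begins with Mrpl or Mrps followed by a number and at most 1 letter. The rule found 78 of 55421 genes, 49 with a large subunit symbol (Mrpl) and 29 with a small subunit symbol (Mrps). After the filter on low counts 77 of the 78 could be tested among 15711 genes, and the exception was Mrpl53.

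The mitochondrial ribosome (mitoribosome) translates the few respiratory chain proteins that mitochondrial DNA encodes. Its ribosomal RNAs are transcribed inside the mitochondrion, whereas its proteins are encoded in the nucleus, made in the cytosol and imported, so a working particle needs the output of both genomes. In CD8+ T cells, which kill infected and tumour cells, mitochondrial translation is known to be needed for sustained killing after activation.

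The question was how these transcripts compare between T cells that took up mitochondria from stromal cells, T cells of the same co-culture that did not, and T cells kept alone. Splenic CD8+ T cells of Pmel Ly5.1 mice were used, a cross of a strain with a transgenic T-cell receptor against a melanocyte antigen and a strain with the Ly5.1 form of CD45, and all 9 libraries share this genotype. For MitoPositive and MitoNegative (3 libraries each) the T cells were kept for 36 h with DM5 cells, an immortalised stromal line from C57BL/6 (BL6) bone marrow with DsRed-labelled mitochondria, and then sorted for CD8+ and for presence or absence of DsRed; monoculture (3 libraries) is T cells without stromal cells. DsRed reports labelled stromal mitochondria in or on a cell at the time of the sort. MitoNegative cells came from the same co-culture, and how much stromal contact the cells of each group had was not measured. Titles also name 0 h, with no explanation in the labels, ages are not given, and replicates are lettered B, C and D in each group. The labels do not say whether letters are separate mice or cultures, so p-values measure the spread between these libraries, which may be technical.

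Libraries held 53546152 to 74722832 gene counts, and replicates of a group differed by more than sampling noise (chi-square per degree of freedom 18.3 to 64.3). The 9 CD8+ T-cell markers had counts in every library and summed to 6123 to 7854 CPM, counts scaled to library size with the trimmed mean of M-values. Of these 9, 6 fell in MitoPositive and 7 in MitoNegative against monoculture (4 in a fit of these 6 libraries with the replicate letter as a block), with median log2 fold changes of -0.27 and -0.29. Over all genes tested, 19.9% fell in MitoPositive and 18.3% in MitoNegative (17.5% in the fit of 6 libraries). The shares of all genes that rose were 22.3% and 20.6%. Summed CPM of 18 stromal markers was 6.13 to 7.39 in monoculture, 17.3 to 47.2 in MitoNegative and 17.5 to 45.1 in MitoPositive, and 14 of the 16 that could be tested were higher in each sorted group than in monoculture, with none passing between the sorted groups. Lum and Dcn, also in the stromal list, stayed below the filter. The 6 B-cell markers summed to 666 to 738 CPM in monoculture, 364 to 457 in MitoNegative and 276 to 306 in MitoPositive. Between the sorted groups 1 of these 6 was lower in MitoPositive with 9 libraries, where 0.0764% of all genes were lower. It was also 1 in a fit of the 6 sorted libraries with the letter as a block, where 8.29% of all genes were lower. The 6 myeloid markers summed to 4.8 to 9.0 CPM over all libraries and the 2 CD4+ T-cell markers to 0.96 to 3.7. Against monoculture 1 myeloid marker rose and 3 fell in MitoPositive, and 1 rose and 2 fell in MitoNegative. The part of these other transcripts in the results below was not tested, and in bulk RNA fewer cells of a type and less RNA per cell cannot be told apart.

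Together the 78 genes took 0.270% ± 0.009 (SD, n = 3) of the counts in monoculture, 0.272% ± 0.005 in MitoNegative and 0.279% ± 0.006 in MitoPositive. For letters B, C and D these shares were 0.262%, 0.268% and 0.279% in monoculture, 0.277%, 0.272% and 0.268% in MitoNegative, and 0.278%, 0.286% and 0.274% in MitoPositive. The 3 groups overlapped. The mitochondrial ribosomal RNAs mt-Rnr1 and mt-Rnr2, the RNA partners of these proteins, had shares that did not overlap between any 2 groups, at 0.202% to 0.238% in monoculture, 0.788% to 0.853% in MitoNegative and 0.457% to 0.543% in MitoPositive. Ribosomal RNA was depleted before sequencing, and the part of that depletion in these shares was not tested.

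**Figure D1:**
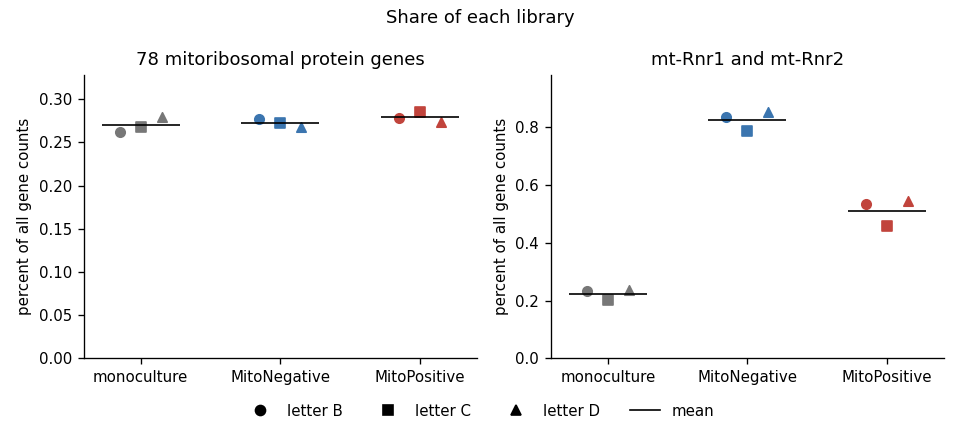
Percent of all gene counts per library (vertical axis, from 0) taken by the 78 mitoribosomal protein genes (left) and by mt-Rnr1 and mt-Rnr2 (right) in each group; points are libraries with a symbol per letter and bars are means of 3. The protein gene shares lie between 0.262% and 0.286% and overlap across groups, while the RNA shares separate into 3 levels.

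Levels between genes were compared as CPM per kilobase of deposited exon length, which merges the exons of every annotated transcript and so lowers the value of genes with long or rarely used exons. The 77 genes spanned a 42.4-fold range around a median of 13.6 CPM per kb, and the middle 50% lay between 7.02 and 21.1. The highest were Mrps23 (58.8 CPM per kb over the 9 libraries), Mrps21 (57.5), Mrpl34 (56.2) and Mrpl9 (50.4). The first 3 of these changed order between groups: Mrps21 was the highest in monoculture (62.2 ± 1.4 CPM per kb, SD, n = 3; Mrpl34 61.3 ± 5.0 and Mrps23 60.2 ± 1.6) and Mrps23 in MitoNegative (58.6 ± 5.3; Mrps21 53.9 ± 4.8 and Mrpl34 51.8 ± 1.7). The lowest were Mrps10 (1.39), Mrps25 (2.89), Mrps22 (3.07) and Mrpl33 (3.29), and over the 9 libraries the last 3 of these overlapped with one another; Mrps10 has the longest merged exon length of the 8, at 8079 bases. The median was 15.9 CPM per kb for genes with a large subunit symbol and 9.15 for those with a small subunit symbol. The order of the genes was nearly the same in each group (Spearman's rho across the 77 genes 0.984 to 0.997, a description of genes that share length and libraries). Replicates were close, with a median coefficient of variation of 7.26% in monoculture, 4.55% in MitoNegative and 4.84% in MitoPositive.

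**Figure D2:**
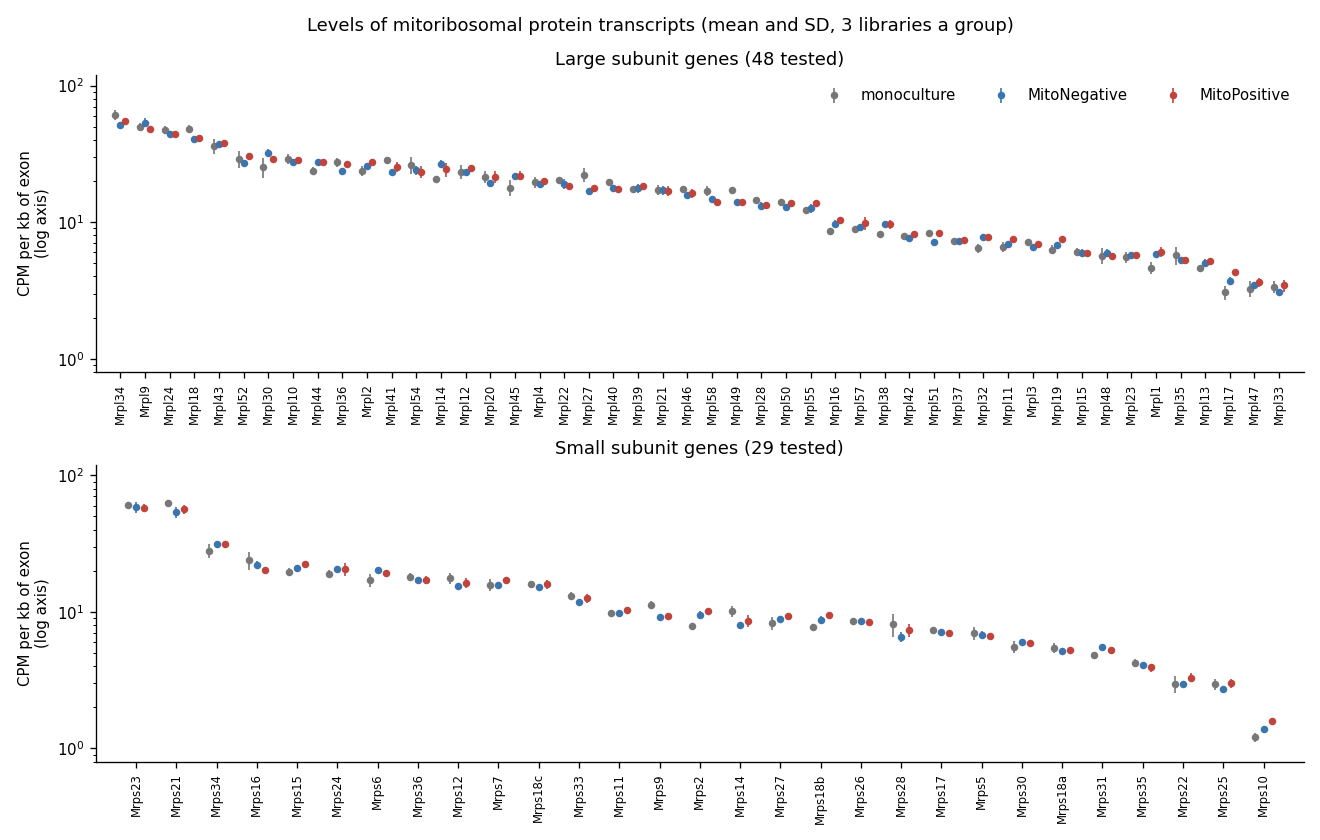
Mean CPM per kb of exon (log axis) with SD of 3 libraries. The 48 genes with a large subunit symbol are on top and the 29 with a small subunit symbol below, ordered by level. Colours give monoculture (grey), MitoNegative (blue) and MitoPositive (red). Levels run from 1.39 (Mrps10) to 58.8 (Mrps23) over the 9 libraries, and the groups differ far less than the genes.

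MitoPositive and MitoNegative cells, sorted apart by stromal mitochondria, differed by less than 1.5-fold in each of the 77 transcripts, by the 95% interval of the difference. In the fit of all 9 libraries by edgeR's quasi-likelihood test no member passed an adjusted p of 0.05 in either direction; the background was 0.0891% of all genes called higher and 0.0764% called lower. DESeq2 and limma voom also called none, and 5 of 77 had an unadjusted p under 0.05 (10.5% of all genes). The median log2 fold change was 0.05 over the members and 0.00 over all genes, and 54 of 77 estimates were positive. That interval lay inside 1.25-fold for 64 genes, and the widest reached 1.40-fold. Estimates ran from -0.16 to 0.22 on the log2 scale.

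The replicate letters paired these libraries (correlation of same-letter residuals 0.402, 0.339 and 0.459), and a fit of the 6 sorted libraries alone with the letter as a block gave another count. It called 8 members higher and 3 lower in MitoPositive, 10.4% and 3.90% of 77, where it called 9.92% of all genes higher and 8.29% lower. With all 9 libraries and the same block the counts were 0 and 0. Within letters, 34 members (44.2%) were higher in MitoPositive in all 3, against 25.2% of all genes, and 8 (10.4%) were lower in all 3, against 24.7%; 35 had mixed signs. The members' median difference was 0.01 in letter B, 0.08 in C and 0.04 in D on the log2 scale, with 44, 59 and 58 of 77 positive. The fits by group without MitoPositive C or without MitoNegative D gave medians of 0.02 in place of 0.05.

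Mrpl51, a large subunit protein found in mitoribosomes and not in bacterial ones, had the smallest p between the sorted groups in the fit of 9 libraries, and Mrpl17 in the paired fit. Its libraries B, C and D gave 29.3, 29.8 and 27.9 CPM in MitoNegative and 33.1, 35.4 and 32.4 in MitoPositive. The groups did not overlap, and the log2 fold change was 0.21 ± 0.06 (SE; adjusted p = 0.22 by edgeR with 9 libraries, 0.00174 with the 6 paired). Mrpl36, a small bacterial-type protein of the large subunit, gave 28.1, 27.7 and 26.2 CPM in MitoNegative and 30.2, 32.9 and 29.7 in MitoPositive. These groups did not overlap either, with a log2 fold change of 0.18 ± 0.07 (adjusted p = 0.384 with 9 libraries, 0.00907 paired). Mrpl17, a protein near the exit of the peptide tunnel, was 0.22 ± 0.09 higher on the log2 scale (adjusted p = 0.389, 0.00147 paired), from 28.3, 29.8 and 26.1 CPM to 32.6, 34.1 and 31.2. It was also the member with the largest estimate in MitoPositive against monoculture, given further on.

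Mrpl19, a bacterial-type large subunit protein, gave 37.8, 37.2 and 35.3 CPM in MitoNegative and 41.0, 42.5 and 39.4 in MitoPositive (log2 fold change 0.15 ± 0.06; adjusted p = 0.427 by edgeR, 0.00938 paired); 36% of its exon bases are shared with Gcfc2 on the other strand. Mrps10, a protein of the small subunit head, gave 11.1, 10.6 and 11.9 CPM in MitoNegative and 12.8, 12.7 and 12.7 in MitoPositive (0.19 ± 0.09; adjusted p = 0.481, 0.0441 paired). Mrpl9, among the most abundant members, was the named gene with a negative estimate, at 154, 148 and 132 CPM in MitoNegative and 129, 130.0 and 128 in MitoPositive (-0.16 ± 0.07; adjusted p = 0.434, 0.0105 paired). In each of these 3 genes the groups did not overlap, although for Mrpl9 the letter D libraries lay close. The other 5 calls of the paired fit were Mrpl52 (0.18 ± 0.04), Mrpl20 (0.15 ± 0.05), Mrps7 (0.13 ± 0.04), Mrpl30 (-0.16 ± 0.03) and Mrps16 (-0.13 ± 0.04 on the log2 scale), named after their values were seen.

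**Figure D3:**
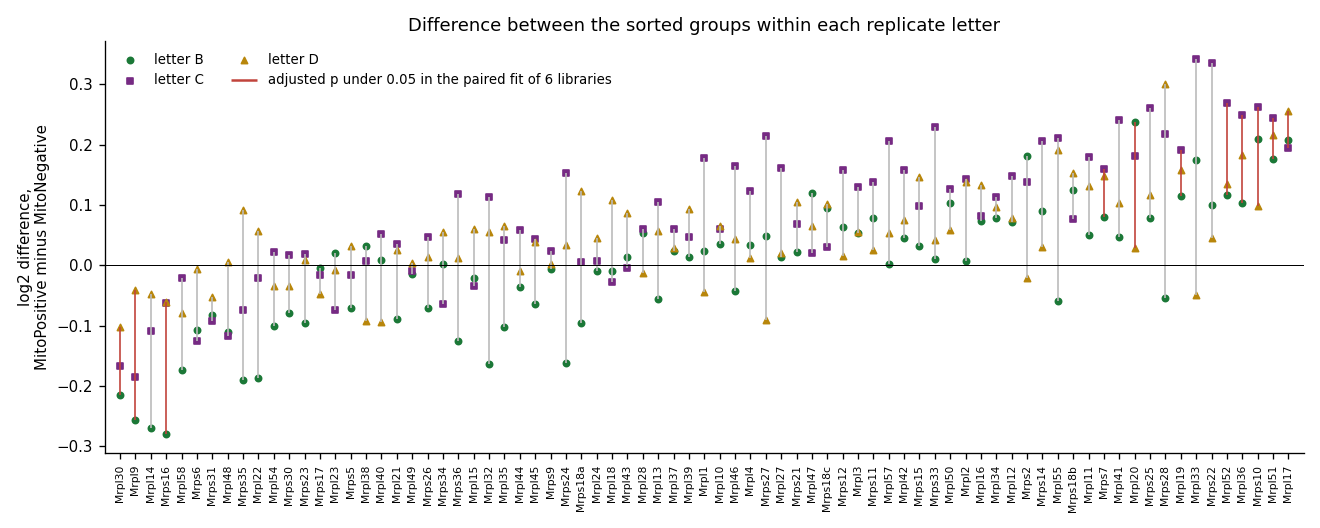
Log2 difference, MitoPositive minus MitoNegative, within each replicate letter (symbols) for the 77 members ordered by their mean difference; a line joins the lowest and highest letter and is red where the paired fit of 6 libraries gave an adjusted p under 0.05. More members lie above 0 in all 3 letters (34) than below it (8), and letter C is the highest for many.

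Both sorted groups were also compared with monoculture, which asks what co-culture and sorting together changed; these comparisons share the monoculture libraries. In MitoPositive 13 members rose and 6 fell, 16.9% and 7.79% of 77, against a background of 22.3% of all genes higher and 19.9% lower (42.2% together). In MitoNegative 10 rose and 11 fell, 13.0% and 14.3%, against 20.6% and 18.3% (38.9% together). With all 9 libraries the members' share lay below that of all genes in each direction. Median log2 fold changes were 0.02 in MitoPositive and -0.02 in MitoNegative, with medians of 0.00 and 0.01 over all genes. Changes were small: the 95% interval lay inside 1.5-fold for 76 members in MitoPositive and for 75 in MitoNegative. Among the members called in MitoPositive, the libraries of Mrpl45 overlapped between the groups. Between the same groups stromal marker RNA was higher in each sorted library (17.3 to 47.2 against 6.13 to 7.39 summed CPM) and B-cell marker RNA lower (276 to 457 against 666 to 738). CD8+ T-cell markers summed to 6123 to 6511 CPM in the sorted libraries and 6482 to 7854 in monoculture. The part of these shifts in the counts of members was not tested.

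The counts depended on single libraries. In monoculture D 75 of 77 members lay above their group mean, with a median residual of 0.11 on the log2 scale, and in monoculture B 4 of 77 did; in MitoPositive C 69 did. For MitoPositive the number higher was 8 (10.4%, against 18.7% of all genes) without monoculture B and 8 (10.4% against 18.4%) without MitoPositive C. Without monoculture D it was 26, or 33.8% against 23.0% of all genes, so the members' share then lay above the background. With total counts as the scale 19 were higher and 5 lower (24.7% and 6.49%, against 24.5% and 17.3%). For MitoNegative the number higher was 5 (6.49%) without monoculture B, without monoculture C or without MitoNegative C, against 17.3%, 17.6% and 17.2% of all genes. Without monoculture D it was 18, or 23.4% against 20.9%. The number lower was 6 (7.79%) without monoculture D, without MitoNegative B or without MitoNegative D, against 16.6%, 13.8% and 15.8%. The letters of MitoNegative and monoculture also paired, and in their 6 libraries with the letter as a block 9 members were higher and 7 lower (11.7% and 9.09%, against 19.3% and 17.5% of all genes).

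**Figure D4:**
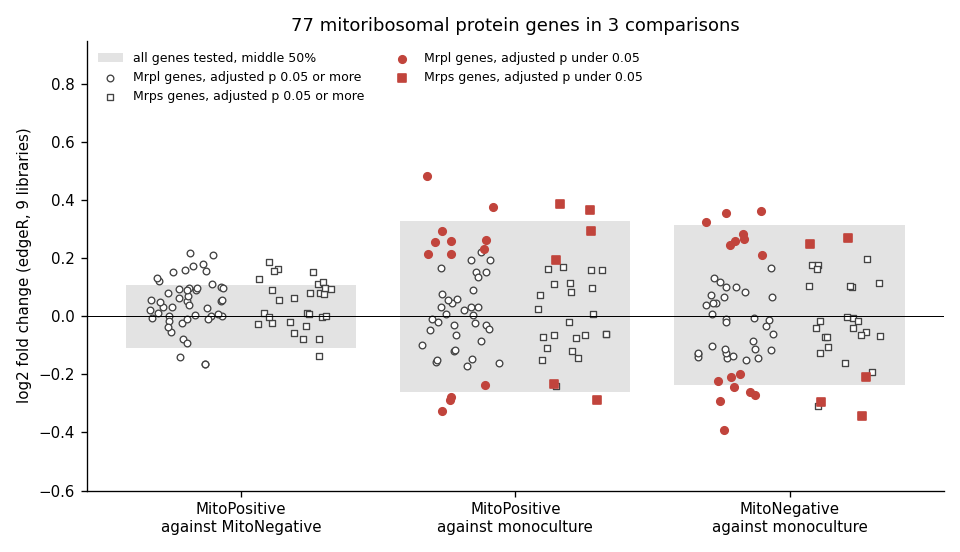
Log2 fold change (vertical axis) of the 77 members in the 3 comparisons of the 9-library fit. Large subunit symbols are circles and small subunit symbols squares, filled red where the adjusted p was under 0.05. Grey bands hold the middle 50% of all genes tested. No member is red between the sorted groups, and against monoculture the red points lie on both sides of 0.

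Of the 77 members, Mrpl17 showed the largest rise against monoculture, in MitoPositive. Its monoculture libraries B, C and D gave 20.4, 23.8 and 25.8 CPM, below every MitoNegative (26.1 to 29.8) and MitoPositive library (31.2 to 34.1). The log2 fold change was 0.49 ± 0.09 in MitoPositive (adjusted p = 0.000828 by edgeR) and 0.27 ± 0.09 in MitoNegative (0.0283). The second call ended without monoculture B (0.18), monoculture C (0.28), MitoNegative B (0.27) or MitoNegative C (0.23). Mrps2, a core protein of the small subunit, gave 22.4, 23.0 and 23.3 CPM in monoculture, 26.2, 27.1 and 29.6 in MitoNegative and 29.8, 29.8 and 29.2 in MitoPositive. All sorted libraries lay above all monoculture libraries, with log2 fold changes of 0.37 ± 0.06 in MitoPositive (adjusted p = 0.000582) and 0.27 ± 0.06 in MitoNegative (0.00493). Mrpl1, a protein of the mobile arm beside the exit site for transfer RNA, gave 18.5, 19.3 and 22.2 CPM in monoculture, 26.8, 23.9 and 24.3 in MitoNegative and 27.3, 27.1 and 23.5 in MitoPositive. It too was higher in each sorted library, by 0.38 ± 0.09 in MitoPositive (adjusted p = 0.00467) and 0.32 ± 0.09 in MitoNegative (0.0122).

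Mrps10, Mrps18b and Mrpl16 were named for MitoPositive only, since their estimates in MitoNegative did not pass. Mrps10 stood at 9.19, 10.5 and 9.46 CPM in monoculture, below its 3 MitoPositive libraries (12.7 to 12.8), and rose by 0.39 ± 0.09 on the log2 scale (adjusted p = 0.00383 by edgeR). Mrps18b, a small subunit protein of the S18 family, rose by 0.29 ± 0.08 (adjusted p = 0.00818), from 15.5, 15.9 and 17.1 to 20.3, 20.1 and 18.8 CPM, with no overlap. The antisense gene Gm16279 shares 30.5% of its exon bases. Mrpl16, a core large subunit protein, rose by 0.26 ± 0.07 (adjusted p = 0.00876), from 26.1, 28.3 and 28.2 to 33.8, 33.9 and 31.3 CPM. In MitoNegative their adjusted p values were 0.0953, 0.0857 and 0.0729, and between the sorted groups none of the 3 passed with 9 libraries.

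Mrpl14, Mrpl30 and Mrpl45 were named for MitoNegative. Mrpl14, a large subunit protein at the face that meets the small subunit, gave 19.6, 19.6 and 20.2 CPM in monoculture and 24.3, 27.6 and 24.4 in MitoNegative, and rose by 0.36 ± 0.09 on the log2 scale (adjusted p = 0.007 by edgeR). Its MitoPositive libraries gave 20.2, 25.5 and 23.6 CPM, where letter B was at the level of monoculture (0.22 ± 0.09, adjusted p = 0.0629, and 0.0322 with the block over 9 libraries). Mrpl30, a bacterial-type protein, rose by 0.36 ± 0.10 in MitoNegative (adjusted p = 0.0125), from 74.7, 72.7 and 96.8 to 111, 102 and 99.0 CPM. Monoculture D lay close to the sorted libraries, and the call ended without monoculture B (0.30) or monoculture C (0.28). Mrpl45, which anchors the mitoribosome to the inner membrane, gave 39.8, 47.2 and 52.2 CPM in monoculture, 54.3, 58.2 and 57.1 in MitoNegative and 51.9, 59.9 and 58.6 in MitoPositive. It rose by 0.29 ± 0.09 in each sorted group (adjusted p = 0.0262 in MitoNegative, 0.0215 in MitoPositive). In MitoNegative the call ended without monoculture B (0.18), monoculture C (0.30), MitoNegative C (0.27) or MitoNegative D (0.28).

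Among the members that fell, Mrps9, a core small subunit protein, had the smallest adjusted p in both comparisons. It gave 63.2, 62.5 and 69.6 CPM in monoculture, 52.4, 53.2 and 53.7 in MitoNegative and 52.2, 54.1 and 53.8 in MitoPositive. Every sorted library lay below every monoculture library, and the log2 fold change was -0.29 ± 0.06 in MitoPositive (adjusted p = 0.00136 by edgeR) and -0.29 ± 0.06 in MitoNegative (0.0014). Mrpl27, a protein that reaches toward the catalytic centre, gave 19.3, 21.9 and 24.6 CPM in monoculture, 17.3, 16.4 and 16.5 in MitoNegative and 17.5, 18.4 and 16.7 in MitoPositive. It was lower in each sorted library, by -0.33 ± 0.09 in MitoPositive (adjusted p = 0.0109) and -0.39 ± 0.09 in MitoNegative (0.00442). Without letter D in all groups the MitoPositive value was -0.19 and did not pass. Mrpl18, which contacts an RNA in the central protuberance, gave 66.4, 64.2 and 72.7 CPM in monoculture, 57.5, 58.9 and 53.5 in MitoNegative and 57.1, 57.7 and 57.7 in MitoPositive. The groups again did not overlap (-0.24 ± 0.06 in MitoPositive, adjusted p = 0.00803; -0.26 ± 0.06 in MitoNegative, 0.00539).

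Mrpl49, a mitochondria-specific large subunit protein, fell from 30.5, 31.2 and 34.4 CPM in monoculture to 27.3, 26.6 and 25.7 in MitoNegative (-0.27 ± 0.06, adjusted p = 0.00544 by edgeR) and to 27.1, 26.4 and 25.8 in MitoPositive (-0.28 ± 0.06, adjusted p = 0.0041). Both sorted groups lay wholly below monoculture. Mrpl58, a hydrolase of the large subunit that frees peptides from stalled ribosomes, gave 53.4, 54.7 and 62.3 CPM in monoculture and 44.8, 49.4 and 45.3 in MitoPositive (-0.29 ± 0.07, adjusted p = 0.00515). MitoNegative gave 50.6, 50.2 and 47.8 CPM, which overlaps with MitoPositive (-0.20 ± 0.07 against monoculture, adjusted p = 0.0387, and 0.0866 paired). Mrpl41, a mitochondria-specific protein, fell in MitoNegative from 24.3, 24.6 and 26.7 to 21.8, 20.7 and 19.2 CPM (-0.29 ± 0.08, adjusted p = 0.0135), a call that ended without MitoNegative D (-0.24). In MitoPositive it stood at 22.5, 24.5 and 20.6 CPM, which overlaps with monoculture (adjusted p = 0.133).

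Mrps14, a small subunit protein, gave 30.9, 31.5 and 36.5 CPM in monoculture, 26.5, 26.7 and 24.8 in MitoNegative and 28.2, 30.8 and 25.3 in MitoPositive. It fell in MitoNegative (-0.34 ± 0.09, adjusted p = 0.00779 by edgeR). In MitoPositive it passed narrowly (-0.23 ± 0.09, adjusted p = 0.0469), and that call ended without monoculture C (-0.27), monoculture D (-0.14), MitoNegative B (-0.22), MitoNegative C (-0.22), MitoNegative D (-0.23), MitoPositive B (-0.24) or MitoPositive D (-0.16). Without letter D in all groups the value was -0.07.

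Outside the naming rule, and named after their values were seen, Mrpl32 (0.26 ± 0.07), Mrpl19 (0.25 ± 0.06), Mrpl38 (0.23 ± 0.07), Mrpl2 (0.22 ± 0.07) and Mrps15 (0.19 ± 0.06 on the log2 scale) also rose in MitoPositive, each without overlap. In MitoNegative Mrpl32 (0.26 ± 0.07), Mrpl38 (0.25 ± 0.07) and Mrps6 (0.25 ± 0.08) rose. Mrpl34 (-0.24 ± 0.07), Mrpl36 (-0.22 ± 0.07), Mrpl51 (-0.21 ± 0.06) and Mrps21 (-0.21 ± 0.07) fell there, and of these the calls of Mrpl36, Mrpl51 and Mrps21 ended in the paired fit (adjusted p = 0.0659, 0.0667 and 0.0676 by edgeR). Mrpl34 and Mrps21 are among the members of highest level per kb.

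**Figure D5:**
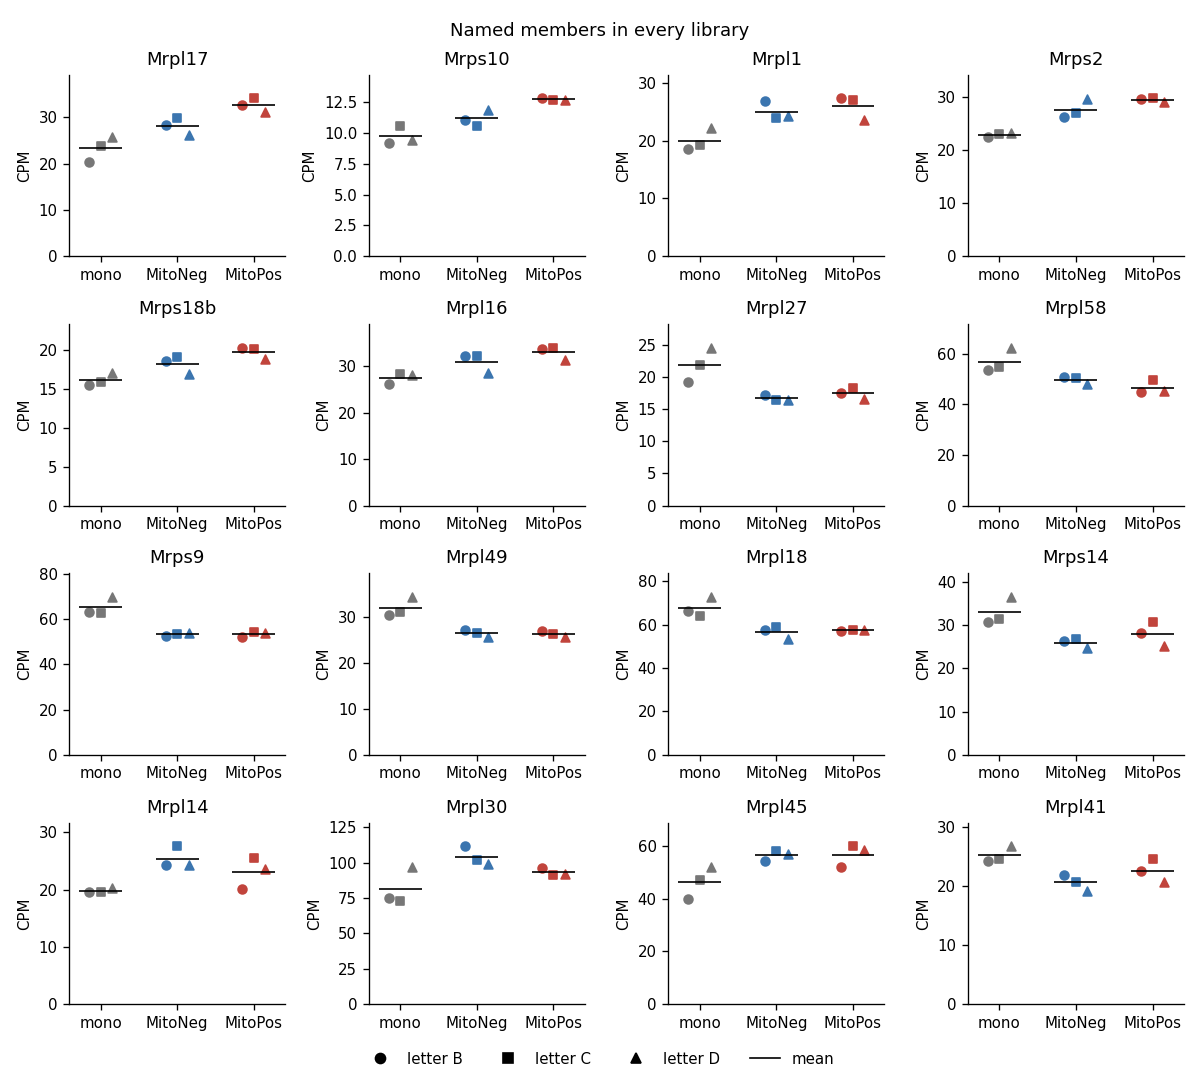
CPM in every library (vertical axes from 0) for the 16 members named from the comparisons with monoculture; symbols give the letter, colours the group (grey monoculture, blue MitoNegative, red MitoPositive) and bars the mean of 3. Mrpl17, Mrps2 and Mrpl1 lie higher in both sorted groups, and Mrps9, Mrpl18, Mrpl27 and Mrpl49 lower. The letter D monoculture library is the highest of its group for each gene shown, risen or fallen, except Mrps10 and Mrpl16.

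By subunit symbol and by place in the particle, the calls went in both directions. With 9 libraries 22.3% of all genes were higher and 19.9% lower in MitoPositive, and 20.6% and 18.3% in MitoNegative. Among 48 genes with a large subunit symbol 9 rose and 4 fell in MitoPositive. In MitoNegative 8 of them rose and 8 fell (7 and 5 in the paired fit). Among 29 with a small subunit symbol the counts were 4 and 2, and 2 and 3 (2 and 2 paired). Of the 48 genes with a bacterial counterpart 10 rose and 4 fell in MitoPositive and 7 and 7 in MitoNegative (7 and 5 paired), and of 28 tested mitochondria-specific genes 3 and 2, and 3 and 4 (2 and 2 paired). In the central protuberance, the crown of the large subunit, 1 of 8 rose (Mrpl38) and 3 fell (Mrpl18, Mrpl27 and Mrpl58) in each sorted group, with medians of -0.12 and -0.14, and in MitoNegative the paired fit called Mrpl18 and Mrpl27 but not Mrpl58. At the peptide exit tunnel 2 of 6 rose (Mrpl17 and Mrpl45) in each and none fell, with medians of 0.10 and 0.08. Both directions together took 50% of the protuberance genes and 33.3% of the tunnel genes in each, against 42.2% and 38.9% of all genes. These lists are small, and no test compares them with other genes.

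The stalk recruits translation factors, and none of its 4 tested genes passed in the fit of 9 libraries by group. That fit called 42.2% of all genes in MitoPositive and 38.9% in MitoNegative against monoculture, and 0.165% between the sorted groups. A count over 4 genes can say little about the stalk. Mrpl12, the repeated stalk protein, had 34.6 to 36.6 CPM in MitoNegative, 36.5 to 40.6 in MitoPositive and 31.9 to 40.1 in monoculture. Mrpl10, which holds Mrpl12, stood at 46.0 to 48.6, 47.8 to 50.7 and 47.3 to 54.8 CPM in the same order, so each pair of groups overlapped in both genes. Mrpl11, at the base, was near the threshold in MitoPositive against monoculture (23.6, 25.7 and 23.7 against 19.3, 22.0 and 22.5 CPM, adjusted p = 0.0516 by edgeR), and it passed with the block over 9 libraries (adjusted p = 0.0364). Mrpl3, close to the catalytic centre, had an adjusted p of 0.506 in MitoPositive and 0.0791 in MitoNegative. Mrpl44, a protein related to ribonuclease III, rose in both (adjusted p = 0.0283 and 0.0331, the second 0.0621 paired), from 37.3, 37.9 and 42.1 CPM to 47.0, 46.8 and 42.3 in MitoPositive and 48.2, 45.0 and 42.6 in MitoNegative.

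Mrps12, of the decoding centre, stood at 16.8, 18.2 and 20.1 CPM in monoculture and 16.8, 18.5 and 15.7 in MitoPositive (adjusted p = 0.334). Mammals have 3 genes related to bacterial S18, and of these Mrps18b alone passed, in MitoPositive against monoculture. Mrps18a and Mrps18c had adjusted p values of 0.574 and 0.937 there; their libraries overlapped between all groups. Some symbols predate the structures: Mrps18a and Mrps30 are now placed in the large subunit, and Mrps36 is regarded as a component of the oxoglutarate dehydrogenase complex. Mrps30 and Mrps36 did not pass against monoculture in MitoPositive (adjusted p = 0.362 and 0.495) or in MitoNegative (0.212 and 0.498).

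Promoter sequence is shown for the 6 members that passed against monoculture in both sorted groups and whose last 150 bases before the RefSeq start hold at most 30 annotated exon bases. These are from RefSeq on GRCm38.p6, 5′ to 3′ on the strand of the gene, and capitals mark a searched motif.
Mrpl17: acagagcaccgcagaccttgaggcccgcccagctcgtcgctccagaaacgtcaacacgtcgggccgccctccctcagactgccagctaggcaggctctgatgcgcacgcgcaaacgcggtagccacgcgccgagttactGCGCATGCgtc
Mrpl45: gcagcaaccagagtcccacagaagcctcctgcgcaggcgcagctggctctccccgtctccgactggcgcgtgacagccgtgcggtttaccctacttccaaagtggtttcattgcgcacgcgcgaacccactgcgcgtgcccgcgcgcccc
Mrpl58: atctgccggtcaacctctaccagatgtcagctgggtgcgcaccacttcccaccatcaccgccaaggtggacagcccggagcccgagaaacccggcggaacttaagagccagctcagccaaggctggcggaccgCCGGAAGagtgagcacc
Mrps14: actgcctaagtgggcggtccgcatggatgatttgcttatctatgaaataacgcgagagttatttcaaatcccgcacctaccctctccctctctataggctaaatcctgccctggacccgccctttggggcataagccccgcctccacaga
Mrps2: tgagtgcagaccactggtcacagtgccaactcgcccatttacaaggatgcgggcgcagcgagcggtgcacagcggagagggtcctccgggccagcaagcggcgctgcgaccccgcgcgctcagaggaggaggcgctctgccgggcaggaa
Mrps9: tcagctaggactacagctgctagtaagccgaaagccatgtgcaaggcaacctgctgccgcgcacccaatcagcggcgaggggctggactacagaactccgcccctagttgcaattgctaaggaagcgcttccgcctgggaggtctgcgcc
Mrpl17 lies at chr7:105811088-105811237 on the minus strand, Mrpl45 at chr11:97315566-97315715, Mrpl58 at chr11:115403602-115403751, Mrps14 at chr1:160195065-160195214, Mrps2 at chr2:28467916-28468065 and Mrps9 at chr1:42851083-42851232, the last 5 on the plus strand. The capitals are a match to the NRF1 motif that begins 11 bases before the start of Mrpl17, a gene that rose, and to the ETS motif of GABP that begins 17 bases before the start of Mrpl58, a gene that fell. The other stretches held no match in these 150 bases.

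NRF1 and GABP are transcription factors known for driving nuclear genes of mitochondrial proteins. Over 75 promoters of 69 members (250 bases before the start, both strands, motifs may overlap one another), the ETS motif CCGGAAG was in 18, or 24%, against 6.91% of 32851 promoters in the table and 13.5% of those of tested genes. The NRF1 motif GCGCATGC was in 8, or 10.7%, against 2.26% and 4.25%. The YY1 motif AAGATGGC was in 4, or 5.33%, against 1.56% and 2.06%, and the E-box CACGTG, which MYC can bind, in 7, or 9.33%, against 6.02% and 8.03%. A match describes letters and is not evidence of binding.

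Members lay on 17 chromosomes, with 11 on chromosome 11. In the deposited GRCm38 coordinates Mrpl17 spans chr7:105803206-105811099, Mrps2 chr2:28468066-28471178, Mrpl1 chr5:96209493-96266727 and Mrpl51 chr6:125191801-125196269. Of those that fell, Mrps9 spans chr1:42851233-42905683, Mrpl27 chr11:94653767-94660089 and Mrpl49 chr19:6053622-6057785. A start within 500 bases of the start of an oppositely oriented tested protein-coding gene was found for 25 of 77 members (32.5%) and for 13.1% of 12002 tested protein-coding genes; Mrpl46 and Mrps11 face each other in this way. Exon bases were shared with another gene on the same strand in 8 members and on the opposite strand in 28, and 45 shared none. Whether counting used strand is not given in the sources used here, and reads of opposite-strand partners then cannot be told apart, as for Mrps25 (69.8% of exon bases shared with Nr2c2) and Mrps34 (63.4% on the opposite strand). Mrpl53, of the stalk base, had 1 count in 1 library (MitoNegative D) and 0 in the other 8, and 88.0% of its exon bases lie in Gm42688 on the same strand, which had 97 to 189 counts per library. The part of this overlap in its count was not tested.

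Proteins and enzymes that work with the mitoribosome moved in both directions against monoculture, and in the 9-library fit by edgeR none passed between the sorted groups. Of 5 mitoribosomal proteins with other symbols, Dap3, a GTP-binding small subunit protein, fell in MitoPositive (-0.34 ± 0.07, adjusted p = 0.00158) and MitoNegative (-0.31 ± 0.07, 0.00309). Ptcd3, also of the small subunit, rose in MitoPositive (0.15 ± 0.06, adjusted p = 0.0495, and 0.051 with the block over 9 libraries) and, in the paired fit, against MitoNegative (0.16 ± 0.04, adjusted p = 0.00934). Of 30 assembly and rRNA modification genes 7 rose and 3 fell in MitoPositive, and 4 and 4 in MitoNegative (4 and 2 paired). With 9 libraries these were 33.3% and 26.7% of the 30, against 42.2% and 38.9% of all genes. The rRNA methyltransferase gene Mettl15 rose in both (0.74 ± 0.10 and 0.60 ± 0.10), as did the assembly GTPase gene Gtpbp10 (0.38 ± 0.07 and 0.32 ± 0.07), while the methyltransferase gene Mrm2 (-0.37 ± 0.12 and -0.34 ± 0.12, the second with adjusted p = 0.0654 paired) fell in both. Rbfa, a small subunit maturation factor, also fell in both (-0.36 ± 0.07 and -0.34 ± 0.07).

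Of 19 translation factors 3 rose and 2 fell in each sorted group, 26.3% of the list. The share of all genes was 42.2% in MitoPositive and 38.9% in MitoNegative. Mtrf1 (0.48 ± 0.11 in MitoPositive, 0.42 ± 0.11 in MitoNegative) and Mrrf, the ribosome recycling factor (0.47 ± 0.07 and 0.40 ± 0.07), rose, and the release factor Mtrf1l (-0.27 ± 0.08 and -0.46 ± 0.08) fell. Tufm, the mitochondrial elongation factor, did not pass (adjusted p = 0.273 and 0.0608, the second 0.0351 with the block over 9 libraries). Of 17 mitochondrial aminoacyl-tRNA synthetases 6 rose and 1 fell in MitoPositive and 5 and 2 in MitoNegative, 41.2% of the list in each. Mars2 fell in both (-0.46 ± 0.12 and -0.49 ± 0.12). Nars2 (0.44 ± 0.08 and 0.25 ± 0.08, the second with adjusted p = 0.0761 paired), Aars2 (0.36 ± 0.12 and 0.34 ± 0.12) and Fars2 (0.25 ± 0.08 and 0.41 ± 0.08) rose in both, and Cars2 (-0.36 ± 0.12) fell in MitoNegative, although its libraries overlapped. Between the sorted groups the paired fit called 3 higher and 1 lower among the assembly genes, 2 and 1 among translation factors, and 3 and 1 among synthetases. It called 9.92% of all genes higher and 8.29% lower.

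Of 11 tested nuclear regulators 3 rose and 4 fell in MitoPositive, and 3 and 3 in MitoNegative (3 and 5 with the block over 9 libraries, 3 and 1 in the paired 6). Without the block these were 63.6% and 54.5% of the 11, against 42.2% and 38.9% of all genes. Myc gave 99.7, 113 and 112 CPM in monoculture, 133, 148 and 152 in MitoNegative and 165, 191 and 172 in MitoPositive. The 3 groups did not overlap: it rose in MitoPositive (0.70 ± 0.08, adjusted p = 2.42e-05 by edgeR) and MitoNegative (0.42 ± 0.08, 0.0012), and against MitoNegative it was 0.29 ± 0.08 higher, which passed with the block over 9 libraries (adjusted p = 0.0236) and in the paired fit (7.16e-05) but not without the block (0.154). Nrf1 fell in both (-0.39 ± 0.06 and -0.27 ± 0.06), as did Gabpa (-0.22 ± 0.05 and -0.17 ± 0.05, the second with adjusted p = 0.0889 paired), the DNA-binding subunit of GABP. Its partner Gabpb1 rose in both (0.30 ± 0.07 and 0.40 ± 0.07). Of the coactivators, Pprc1 rose in both (0.46 ± 0.09 and 0.30 ± 0.09) and Ppargc1b fell in MitoPositive (-0.53 ± 0.13). Tfam, which packages and transcribes mitochondrial DNA, did not pass (adjusted p = 0.33 and 0.754), and Ppargc1a was below the filter. In the paired fit of the sorted groups 2 regulators were higher and 3 lower in MitoPositive, Tfam among the latter (-0.11 ± 0.03, adjusted p = 0.0248). That fit called 9.92% of all genes higher and 8.29% lower.

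Cytosolic ribosomal proteins, for comparison, had 86 tested genes. Of these 2 rose and 2 fell in MitoPositive (4 and 2 with the block over 9 libraries). In MitoNegative 2 rose and 1 fell (6 and 1 with the block). Without the block the calls were 4.65% and 3.49% of the 86, against 42.2% and 38.9% of all genes. Between the sorted groups none passed with 9 libraries (1 higher with the block), and their median log2 fold change was -0.06, with 21 of 86 positive, where the mitoribosomal median was 0.05 with 54 of 77 positive. In the paired fit 3 cytosolic genes were higher and 19 lower in MitoPositive, against 8 and 3 of the 77 mitoribosomal genes (10.4% and 3.90%). That fit called 9.92% of all genes higher and 8.29% lower, so the mitoribosomal share higher lay near that of all genes. The difference between the lists was not tested.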

How the data were processed

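Total RNA of 9 mouse CD8+ T-cell libraries was depleted of ribosomal RNA and sequenced after KAPA HyperPrep library preparation, per the labels' protocols. The authors deposited raw counts per gene, which hold 55421 genes and 99 spike-in entries; from the submitters' processing notes come GRCm38, STAR 2.7 and featureCounts, besides bcl2fastq, cutadapt and DESeq2. Annotation release, strandedness and treatment of multi-mapped reads are not given in the sources used here; with near copies, reads could be lost or split. Deposited coordinates equal those of GENCODE M21 for the 54587 identifiers found there. Totals of 53546152 to 74722832 counts per library set the counting precision.

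From the deposited counts, genes were kept by filterByExpr (minimum count 10, minimum total 15), scaled by TMM and fitted by group over 9 libraries with edgeR 4.0.16 in R 4.3.3 (robust quasi-likelihood, 6 residual degrees of freedom). P-values were adjusted by Benjamini-Hochberg over 15711 genes per comparison, with a threshold of 0.05; SE came from the fitted weights, and log2 CPM used a prior count of 2. Scripts were tested on simulated data. Members, gene lists and markers were chosen with earlier results of these data known. Named were up to 6 higher and 6 lower passing members per comparison with mean log2 CPM of at least 1 and no overlap between groups (where none passed, the 6 of smallest p), the 4 highest and 4 lowest levels, untested members, genes of known role, up to 3 passing genes per list, and Dap3, Ptcd3, Tufm, Tfam, Myc, Nrf1 and Gabpa. Pairing of letters was judged by residual correlations above 0.1 in every letter: 0.402, 0.339 and 0.459 between the sorted groups, 0.213, 0.153 and 0.111 between MitoNegative and monoculture, both taken as pairs, and 0.248, 0.0521 and 0.163 between MitoPositive and monoculture, not taken as pairs by that threshold. The 6 libraries of a pair of groups with the letter as a block are called the paired fit. Alternatives were DESeq2 1.42.0, its size factors, limma 3.58.1 voom, total counts as the scale, other filters, the 2 groups alone, the replicate block and leaving out libraries.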

Additional observations from a re-analysis of the deposited data

How the results depend on the processing

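Between the sorted groups the counts of members called stayed at 0 in each of the alternatives except the replicate block with only the 2 groups compared, which gave 8 higher and 3 lower; the replicate block over 9 libraries gave 0 and 0. With only the 2 groups compared, the replicate block also lowered the number of members lower in MitoNegative than monoculture from 11 to 7. For MitoPositive against monoculture, where letters were not taken as pairs, the replicate block gave 16 higher and 6 lower (Mrpl11, Mrpl14 and Mrps6 were added). These were 20.8% and 7.79% of members, against 24.8% and 23.0% of all genes. With the block and the 2 groups alone it was 15 and 5 (19.5% and 6.49%, against 23.5% and 20.1% of all genes). Leaving out single libraries moved the number higher in MitoPositive than monoculture between 8 and 26, the number higher in MitoNegative than monoculture between 5 and 18, and the number lower there between 6 and 11. Leaving out every library of a letter was chosen after seeing the data, and fewer samples were then in the fit. Without letters B, C and D, 5, 3 and 26 members were higher in MitoPositive (16.5%, 14.1% and 22.2% of all genes). In MitoNegative 2, 0 and 23 were higher (14.6%, 12.0% and 19.5% of all genes). Where none was higher, 18 members had an unadjusted p under 0.05 by edgeR, counted over both directions. Without letters C and D, 3 and 5 were lower in MitoNegative (10.1% and 17.4% of all genes). Median log2 fold changes moved between 0.02 and 0.07 for the sorted groups, -0.03 and 0.11 for MitoPositive and -0.08 and 0.06 for MitoNegative against monoculture, so only the first kept its sign. None of the named members' fold changes turned sign. All 30 log2 fold changes named from the comparisons stayed on their side of the threshold with DESeq2, its size factors and limma voom. The 6 of them between the sorted groups had not passed and so had no call to lose. Of the others, 10, 15 and 3 did not keep their call without letters B, C and D, and at most 4 without any single library. Mrps14 in MitoPositive also did not pass with total counts as the scale (-0.20), with no filter (-0.21), with 1 CPM required in every library of a group (-0.22) or with the 2 groups alone (-0.22).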
